A study of Mus musculus with 6 samples.

Results

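Kinesins are motor proteins that use ATP to move along microtubules or to take them apart. The genes described here are the 44 protein-coding mouse genes, of 34981 genes in the table, whose symbols mark them as kinesin motors (Kif and Kifc) together with the kinesin light chain genes Klc1, Klc2 and Klc4. Of these, 12 are taken as the mitotic kinesins (Kif4, Kif11, Kif14, Kif15, Kif18a, Kif18b, Kif20a, Kif20b, Kif22, Kif23, Kif2c and Kifc1). The other 32 are set against them, though they include Kif2a, which also acts at spindle poles, and Kifc5b, a near copy of Kifc1. Kifc2 was not analysed here. RNA was sequenced from spheroids of B16F10, an established mouse melanoma cell line, grown in Matrigel, a basement membrane extract. The treated group, called BMP2, received BMP2, a secreted ligand of the bone morphogenetic protein family, at 100 ng/ml for 10 days, and the control group, called PBS, received the buffer PBS for 10 days and is titled as untreated. Each group had 3 libraries, and the experiment was run in 3 batches with 1 library of each group per batch, so that the replicate number is the batch number. All 6 libraries thus share the cell line, the Matrigel and the time in culture, and the model is a single tumour line cultured without a host.

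Most kinesins have their motor domain at the amino end and walk towards the plus end of the microtubule, while kinesins with the motor at the carboxyl end, such as Kifc1, walk towards the minus end, and the Kif2 motors remove tubulin from microtubule ends. In dividing cells, kinesins separate the spindle poles, move and align chromosomes and build the midzone at which the cell is cut. In other cells, they carry vesicles, mitochondria, endosomes and ciliary cargo, and in mouse melanocytes the heavy chain Kif5b with its light chain moves melanosomes towards the cell edge.

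The libraries held between 27821911 and 36856498 estimated counts. The PBS library of batch 1 stood apart from the other 5, with the lowest scaling factor (0.872, against 0.9755 to 1.087) and a first principal component score of -79.7, against -16.8 to 55.5. The 6 markers of the melanocyte lineage summed to between 21648 and 26816 counts scaled to library size (CPM) with BMP2, and 17234 to 18529.8 CPM with PBS. Markers of leukocytes, endothelium, fibroblasts and epithelium (2 of 4 epithelial genes analysed) each summed to at most 8.51 CPM in any library. Of these genes, Adgre1 and Cdh5 were at 0 in all 6 libraries. The leukocyte gene Lyz2 was at 0.30 to 2.79 CPM and the endothelial gene Pecam1 at 0.72 to 2.02 CPM. The fibroblast gene Pdgfra was at 1.66 to 4.37 CPM with BMP2 and 3.09 to 7.31 CPM with PBS. Pdgfra was highest in the PBS library of batch 1. All values per library below are CPM scaled by the trimmed mean of M values (TMM). The series design names runs of the experiment, called batches here, but no separate stocks of cells. The p-values thus measure the spread between these libraries, which may be technical.

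Of the 44 kinesin genes, 37 had enough counts to be tested, and 0 of them were called higher or lower with BMP2 at an adjusted p of 0.05 (edgeR quasi-likelihood test, Benjamini-Hochberg over 12929 genes). Of all genes tested, 0.0464% were called (6 genes), 0.00773% higher and 0.0387% lower. With batch as a block in the model, 0 of 37 kinesins were called, against 0.735% of all genes (95 genes), 0.371% higher and 0.364% lower. The adjusted p values of the kinesins lay between 0.883 and 0.992, and between 0.171 and 0.964 with the block. At an unadjusted p of 0.05, 1 kinesin passed without the block and 4 passed with it (10.8% of the kinesins), against 5.38% and 17.0% of all genes. The Wald test of DESeq2 also called 0 kinesins, with 1 at an unadjusted p under 0.05.

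The estimates were too wide to call the kinesins equal in both groups. The 95% intervals of the log2 fold changes (BMP2 minus PBS) were between 0.74 and 2.87 wide in the fit without batch. With batch as a block the SE was smaller for all 37 genes, at 0.12 to 0.46 against 0.16 to 0.62. The unadjusted p with the block was 0.00848 for Kif24, 0.00904 for Kif21b, 0.0285 for Kif2a and 0.0315 for Kif9, so that their blocked 95% intervals would leave out 0. In the fit without batch, the narrowest interval was that of the transport motor Kif3a at -0.50 to 0.24. The widest in that fit was that of the low gene Kif5c at -1.37 to 1.49. The fitted log2 fold changes themselves ran from -0.79 (Kifc5b) to 0.68 (Kif9).

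**Figure D1:**
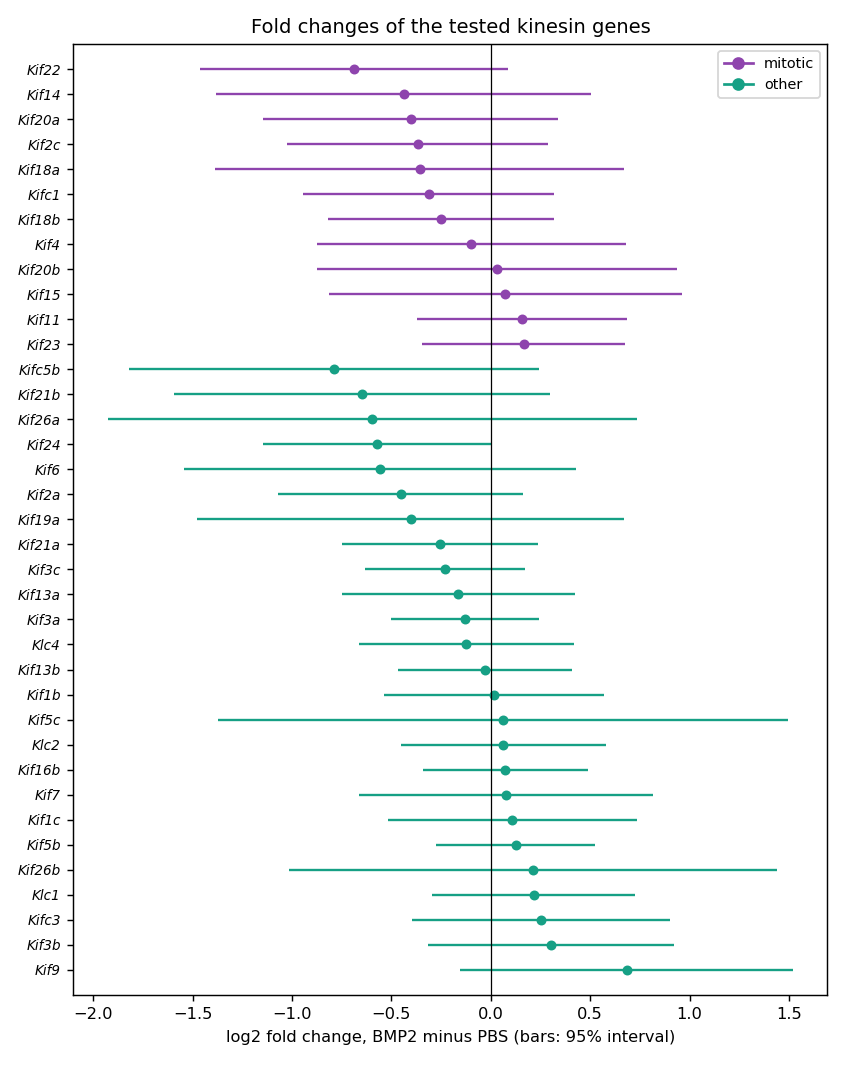
Log2 fold change of each of the 37 tested kinesin genes, BMP2 minus PBS (x axis), with its 95% interval from the fit without batch (bar), for 12 mitotic and 25 other kinesins (y axis, ordered by value). Of the 37 intervals, that of Kif24 ends just below 0 and all others include 0.

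The mitotic kinesins were expressed in every library and all 12 were tested. Their median log2 fold change was -0.28, beside -0.029 for the 25 other tested kinesins and 0.010 for all genes. The sign of the mitotic median differed between batches. Within batches 1, 2 and 3, the median difference of the mitotic kinesins was -0.85, -0.038 and 0.28, that of the other kinesins -0.084, -0.073 and 0.00032 and that of all genes 0.016, -0.00091 and 0.016. In batch 1, 10 of 12 mitotic kinesins were lower with BMP2, while in batch 3, 10 of 12 were higher, and batch 2 was split at 6 lower and 6 higher. Without the PBS library of batch 1, the median of the mitotic kinesins was 0.27, and with batch 1 left out of the blocked fit it was 0.085. The sign of this median thus turned when the library that stood apart was left out.

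Added together, the 12 mitotic kinesins had 303, 267 and 286 CPM in the BMP2 libraries of batches 1, 2 and 3, against 499, 282 and 238 CPM in the PBS libraries. The PBS library of batch 1 was the highest of the 6 and the PBS library of batch 3 the lowest, so the control group enclosed the treated one. Of the CPM of all kinesins, the mitotic genes made up 17.2, 17.2 and 19.1% with BMP2 and 22.8, 16.7 and 14.3% with PBS. For 10 of the 12 mitotic kinesins the PBS library of batch 1 was the highest of the 6 libraries, against 9 of 25 other kinesins and 29.7% of all genes. In bulk RNA, differences in the share of cells near mitosis and in the level of these transcripts per cell cannot be told apart.

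**Figure D2:**
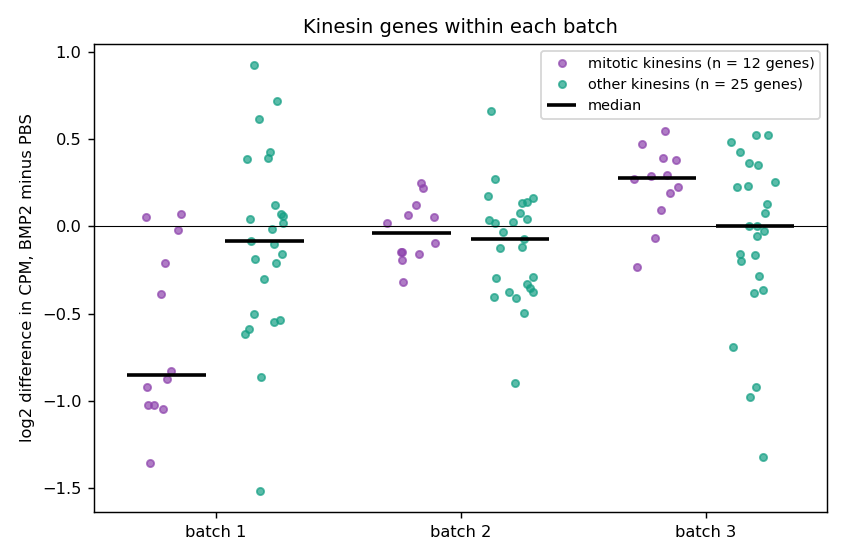
Log2 difference in CPM between the BMP2 and the PBS library of the same batch (y axis) for 12 mitotic and 25 other kinesin genes (points) in batches 1, 2 and 3 (x axis), with medians as bars. The mitotic median lies at -0.85 in batch 1 and at 0.28 in batch 3.

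Among motors that build the spindle, Kif11 slides antiparallel microtubules apart and so separates the poles. It had 25.9, 19.4 and 22.3 CPM in BMP2 libraries of batches 1, 2 and 3, against 24.996, 18.6 and 17.1 CPM in PBS libraries. The groups overlapped, with a log2 fold change of 0.16 (SE 0.23) and small differences of 0.053, 0.064 and 0.38 in batches 1, 2 and 3, each above 0. Kif15, which can take over part of the work of Kif11, had 14.4, 8.002 and 7.14 CPM in BMP2 libraries of batches 1, 2 and 3, against 13.7, 6.87 and 7.498 CPM in PBS libraries. Its level followed the batch, with both libraries of batch 1 above the other 4. Kifc1, which crosslinks and focuses microtubules at the poles, had 19.2, 19.2 and 23.7 CPM in BMP2 libraries of batches 1, 2 and 3, against 35.2, 23.99 and 18.01 CPM in PBS libraries, with differences of -0.87, -0.32 and 0.40.

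Kifc1 shares much of its sequence with a near copy, so its reads and those of the copy are assigned with uncertainty. Of its 31-mers, 57.2% also occur in other genes and 53.2% occur in Kifc5b, a gene on the same chromosome, and 49.9% of the 31-mers of Kifc5b occur in Kifc1. Kifc5b had 6.53, 5.49 and 6.31 CPM in BMP2 libraries of batches 1, 2 and 3, against 18.8, 7.15 and 5.78 CPM in PBS libraries, and its log2 fold change of -0.79 (SE 0.45) was the lowest of the 37. Its PBS library of batch 1 was above the other 5, which lay between 5.49 and 7.15 CPM. The sum of both genes had a log2 fold change of -0.44 (SE 0.31) and an edgeR adjusted p of 0.883, or 0.515 with the block. Shared 31-mers also make the values of some other kinesins less certain, at 26.7% for Kif20a (with Cdc23), 22.1% for Kif2a (mostly Dimt1), 18.1% for Kif7 (mostly 9330171B17Rik) and 15.7% for Kif4 (mostly Pdzd11).

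Kinesins that move and align chromosomes included the mitotic kinesin with the lowest fold change. Kif22, a chromosome arm motor that binds DNA, had 25.9, 31.4 and 23.01 CPM in BMP2 libraries of batches 1, 2 and 3, against 66.5, 35.8 and 26.98 CPM in PBS libraries. It was lower with BMP2 in all 3 batches, at -1.36, -0.19 and -0.23, and its log2 fold change was -0.69 (95% interval -1.46 to 0.088), with edgeR adjusted p of 0.883 and 0.299 with the block. Without the PBS library of batch 1 the log2 fold change was -0.24, and the groups overlapped. Lower in all 3 batches also held for 21.1% of all genes tested.

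Kif2c, which frees wrongly attached microtubules from centromeres by removing tubulin, had 26.3, 30.4 and 29.7 CPM in BMP2 libraries of batches 1, 2 and 3, against 53.6, 32.5 and 25.4 CPM in PBS libraries. Kif18a, which dampens the swings of chromosomes at the spindle equator, had 10.95, 7.16 and 7.75 CPM in BMP2 libraries of batches 1, 2 and 3, against 19.5, 6.89 and 6.78 CPM in PBS libraries. The related Kif18b, which acts on astral microtubules, had 18.05, 24.1 and 29.6 CPM with BMP2 and 34.2, 26.8 and 24.5 CPM with PBS. For these genes the PBS library of batch 1 was the highest, and the other PBS libraries lay close to the BMP2 values. Kif4, which binds chromosome arms and shortens the midzone, had 31.95, 21.5 and 24.1 CPM with BMP2 and 41.8, 23.7 and 17.3 CPM with PBS, with differences of -0.39, -0.14 and 0.47 that changed sign between batches. The log2 fold changes were -0.37 for Kif2c, -0.36 for Kif18a, -0.25 for Kif18b and -0.10 for Kif4.

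Motors of the midzone and of cytokinesis differed in how far the PBS library of batch 1 stood above the rest. Kif20a, which brings the chromosomal passenger complex to the midzone, had 52.4, 46.9 and 57.4 CPM in BMP2 libraries of batches 1, 2 and 3, against 108, 52.4 and 46.8 CPM in PBS libraries. Kif14, which recruits citron kinase to the midbody, had 18.4, 15.2 and 14.1 CPM in BMP2 libraries of batches 1, 2 and 3, against 37.6, 13.96 and 13.2 CPM in PBS libraries. In the PBS library of batch 1, Kif14 was 2.76 times and Kif20a 2.18 times the mean of the other PBS libraries. Kif23, the motor subunit of centralspindlin, was 1.38 times that mean, at 33.4, 27.6 and 31.8 CPM with BMP2 and 33.9, 27.2 and 21.7 CPM with PBS. Its difference was -0.022 in batch 1 and 0.55 in batch 3. Kif20b, which acts late in abscission, had 26.2, 16.04 and 15.1 CPM with BMP2 and 30.2, 13.5 and 12.4 CPM with PBS, with both libraries of batch 1 above the other 4.

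**Figure D3:**
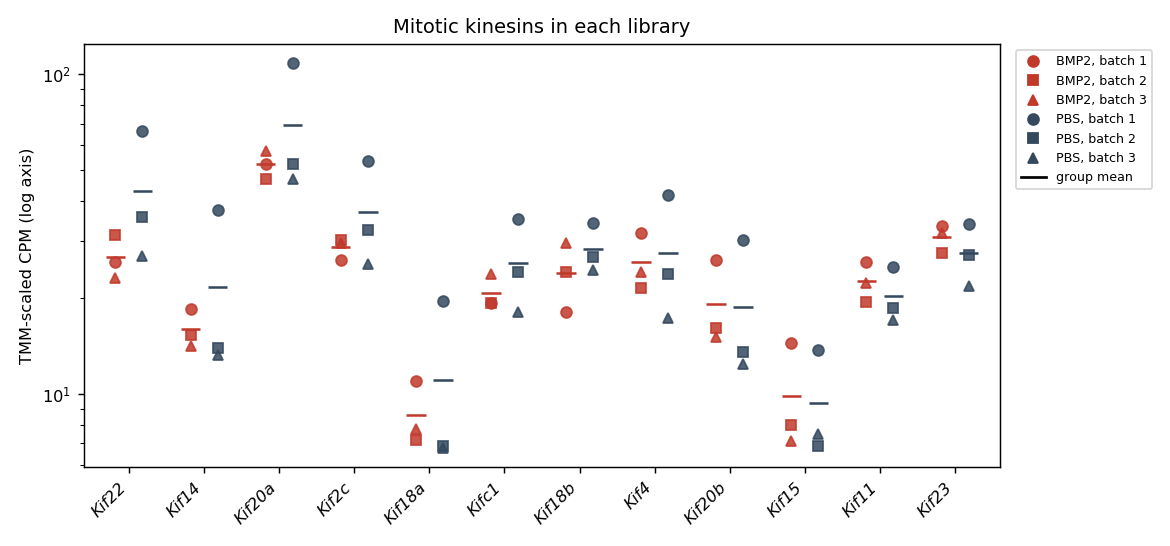
TMM-scaled CPM on a log axis (y axis) of the 12 mitotic kinesins (x axis, ordered by fold change) in the 3 BMP2 and 3 PBS libraries, with group means as bars and the batch as the point shape. The PBS library of batch 1 is the highest of the 6 for 10 of the 12 genes, all but Kif11 and Kif15.

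Partners of the mitotic kinesins were read from a list of 20 spindle and midzone genes and a list of 14 mitotic regulators, which hold none of the 44 genes, though Cenpe, a partner, encodes a kinesin under another symbol. Of the 20 partners, 0 were called in either fit, and the median log2 fold change was -0.30. Their median differences in batches 1, 2 and 3 were -0.84, -0.0072 and 0.21, and 18 of 20 were highest in the PBS library of batch 1. Of the 14 regulators, 0 were called in either fit, with a median of -0.20 and medians of -0.59, 0.014 and 0.061 within batches, and 9 of 14 were highest in the PBS library of batch 1 (64.3%). The 3 partners with the smallest unadjusted p were Ckap5 (log2 fold change -0.57), Aurkb (-0.67) and Aurka (-0.59). Aurkb, the kinase of the chromosomal passenger complex, had 59.2, 58.3 and 40.7 CPM with BMP2 and 137, 70.1 and 45.1 CPM with PBS, with the PBS library of batch 1 the highest. Ckap5 and Aurkb were lower with BMP2 in all 3 batches, and Aurka was mixed. The differences were -0.78, -0.29 and -0.57 for Ckap5 and -1.21, -0.27 and -0.15 for Aurkb. In all, 3 of the 20 partners were lower in all 3 batches (15%, against 21.1% of all genes). The edgeR adjusted p of Ckap5 with the block was 0.168. Among the regulators, those with the 3 smallest unadjusted p were the checkpoint kinase Bub1, the ubiquitin-conjugating enzyme Ube2c and the activator Cdc20. Their log2 fold changes were -0.48, -0.70 and -0.78. Bub1 had 50.04, 44.7 and 47.3 CPM with BMP2 and 80.5, 63.7 and 53.8 CPM with PBS, and its groups did not overlap, BMP2 below PBS, as held for 5.70% of all genes. Over both lists, summed levels were 2271, 2314 and 2111 CPM with BMP2 and 4408, 2394 and 1997 CPM with PBS, so that the PBS library of batch 1 stood above the other 5. The part of this library in the mitotic kinesin values was measured by leaving it out, as given above. What set it apart was not tested.

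The mitotic kinesins shared a promoter feature that the rule did not use. Many genes that peak before mitosis carry a cell cycle genes homology region (CHR), a short element bound by the MuvB complexes, often downstream of CCAAT boxes, which bind NF-Y. RefSeq promoter windows (build GRCm38.p6, 250 bases before to 50 after a start) were at hand for 35 of the 44 kinesins, among them 11 of the 12 mitotic ones. The CHR was searched as TTTGAA and the CCAAT box as CCAAT, each on both strands, and no kinesin window held an overlap of the motifs. A CHR was found in 10 of 11 mitotic windows (90.9%), in 4 of 28 windows of 24 other kinesins (14.3%) and in 17.9% of all 32851 windows. A CCAAT box was found in 7 of 11 mitotic windows (63.6%), in 11 of 28 others (39.3%) and in 37.4% of all. Kif18a was the mitotic kinesin without a CHR in its window.

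In 8 mitotic windows the CHR began within 20 bases of the annotated start, a distance chosen after the positions were seen. This held for 1 of 28 windows of other kinesins (3.57%), that of Kif26b, and for 2.22% of all windows. A CHR further out was found in 1 window of Kif1a and in the windows of Kif27 and Kifc5b. In Kifc5b, the near copy of Kifc1, it lies at position 29 relative to the RefSeq start, with CCAAT boxes upstream. Kifc5b thus has a similar layout but falls past the 20-base cut. To show the place of the CHR, stretches from 90 bases before to 30 after the start are given for the 8 mitotic genes. The transport genes Klc1 and Kif3a follow, whose windows hold no CHR. Capitals mark the CHR (TTTGAA or its reverse complement TTCAAA) and the CCAAT box (CCAAT or ATTGG), and each stretch is on the strand of the gene.
Kif11: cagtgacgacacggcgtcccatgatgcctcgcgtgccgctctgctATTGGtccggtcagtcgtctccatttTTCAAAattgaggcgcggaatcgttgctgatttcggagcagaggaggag
Kif15: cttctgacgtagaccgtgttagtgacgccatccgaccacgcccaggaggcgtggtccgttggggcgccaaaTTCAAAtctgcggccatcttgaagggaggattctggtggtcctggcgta
Kif18b: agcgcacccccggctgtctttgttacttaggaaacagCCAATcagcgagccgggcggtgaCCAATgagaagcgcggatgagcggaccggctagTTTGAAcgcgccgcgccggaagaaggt
Kif20b: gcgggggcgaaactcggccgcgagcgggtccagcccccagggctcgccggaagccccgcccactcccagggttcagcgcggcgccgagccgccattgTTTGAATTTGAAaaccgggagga
Kif22: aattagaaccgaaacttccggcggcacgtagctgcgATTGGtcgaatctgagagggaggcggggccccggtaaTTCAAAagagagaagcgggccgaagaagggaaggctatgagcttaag
Kif23: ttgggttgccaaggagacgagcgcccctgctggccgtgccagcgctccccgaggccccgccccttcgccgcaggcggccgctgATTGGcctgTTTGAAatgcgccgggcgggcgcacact
Kif4: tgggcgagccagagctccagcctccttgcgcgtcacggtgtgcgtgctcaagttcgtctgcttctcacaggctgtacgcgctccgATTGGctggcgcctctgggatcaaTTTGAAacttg
Kifc1: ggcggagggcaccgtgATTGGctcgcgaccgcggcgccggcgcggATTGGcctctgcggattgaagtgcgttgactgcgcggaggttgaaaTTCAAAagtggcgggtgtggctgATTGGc
Klc1: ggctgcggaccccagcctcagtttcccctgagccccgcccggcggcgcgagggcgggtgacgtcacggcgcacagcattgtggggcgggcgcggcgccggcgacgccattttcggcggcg
Kif3a: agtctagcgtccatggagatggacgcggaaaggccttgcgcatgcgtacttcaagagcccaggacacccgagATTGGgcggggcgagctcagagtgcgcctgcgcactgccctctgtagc

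The stretches lie at chr19:37376292-37376411 (Kif11, plus strand), chr9:122950991-122951110 (Kif15, plus strand), chr11:102925095-102925214 (Kif18b, minus strand), chr19:34922268-34922387 (Kif20b, plus strand) and chr7:127042391-127042510 (Kif22, minus strand). The others lie at chr9:61946770-61946889 (Kif23, minus strand), chrX:100625975-100626094 (Kif4, plus strand), chr17:33890604-33890723 (Kifc1, minus strand), chr12:111758778-111758897 (Klc1, plus strand) and chr11:53567279-53567398 (Kif3a, plus strand). Kif20b has a pair of CHR matches in tandem. In Kif11, Kif22, Kif23 and Kif4 a CCAAT box lies upstream of the CHR, in Kif18b and Kifc1 a pair of them does, and the stretches of Kif15 and Kif20b hold none. In Kif14 and Kif2c the CHR lies further out, at positions -228 and -103 relative to the RefSeq start, which in these genes lies 1505 and 3867 bases downstream of the first base of the GENCODE gene. For Kif4 that distance is 328 bases. A match is a run of letters and not a measured site. In batch 1, Kif18a, with no CHR match, had a difference of -0.83. The mitotic kinesins with a match ran from -1.36 (Kif22) to 0.070 (Kif15) in that batch. As only Kif18a lacked a match, whether the CHR and these differences go together was not tested.

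**Figure D4:**
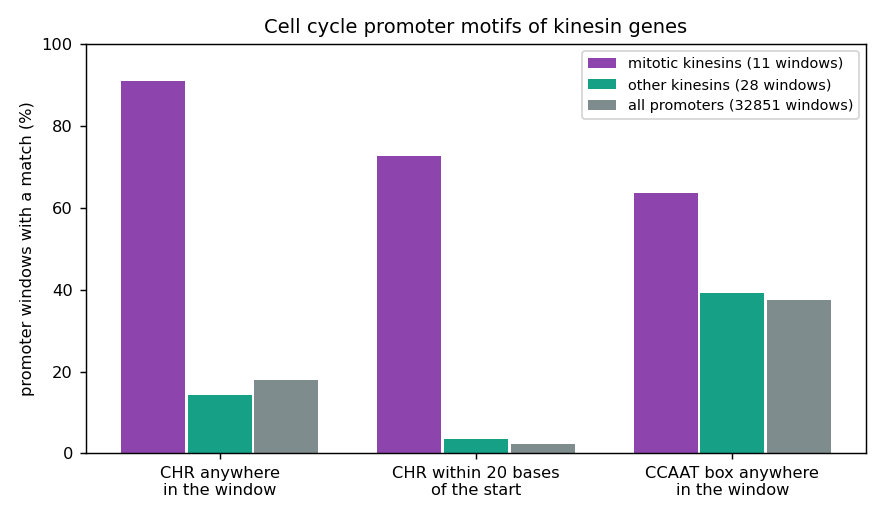
Share of RefSeq promoter windows with a match (y axis, percent) to the CHR anywhere in the window, to the CHR within 20 bases of the start, and to the CCAAT box (x axis), for 11 windows of mitotic kinesins, 28 of other kinesins and all 32851 windows. The CHR was present in 90.9% of the mitotic windows and in 14.3% of those of other kinesins.

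Levels can be set side by side between genes only per length, and were taken as CPM per kilobase of the mean length of a gene's protein-coding transcripts (mean ± SD, n = 3 libraries each). Ordered by the mean over all 6 libraries, the kinesin light chain gene Klc1 was the highest, at 73.95 ± 18.7 with BMP2 and 63.7 ± 6.16 with PBS. Kif3a followed at 48.6 ± 3.07 with BMP2 and 53.2 ± 1.86 with PBS and Kif5b at 39.9 ± 4.03 with BMP2 and 36.6 ± 2.83 with PBS, and then Kif21b at 29.2 ± 14.8 with BMP2 and 45.8 ± 15.3 with PBS and Kif24 at 25.97 ± 3.90 with BMP2 and 38.6 ± 11.2 with PBS. Klc1, Kif3a and Kif5b were apart by more than their SDs in either group, while Kif21b and Kif24 were not apart from each other. Within PBS libraries alone, the means of Kif21b, Kif22 and Kif24 were above that of Kif5b. Kif22, at 24.04 ± 3.81 with BMP2 and 38.7 ± 18.6 with PBS, was the highest mitotic kinesin by the mean over all libraries. With the union of exons as the length, 4 of the 5 highest genes were the same. Kif21b then came second, above Kif3a and Kif5b, Klc4 took the place of Kif24 among the 5, and Kif22 came 14th of 44, so that the order depends on the length used.

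Kinesin-1 carries cargo as a pair of heavy chains with a pair of light chains. Its ubiquitous heavy chain Kif5b (ENSMUSG00000006740, chr18:6201002-6242174, GRCm38) had 179, 149 and 153 CPM in BMP2 libraries of batches 1, 2 and 3, against 137, 145 and 159 CPM in PBS libraries. The groups overlapped, and the log2 fold change was 0.12 (95% interval -0.28 to 0.53). The neuronal heavy chains were low, with Kif5c at 1.097, 0.544 and 1.75 CPM with BMP2 and 1.63, 0.452 and 1.202 CPM with PBS, and Kif5a at 24 estimated counts over the BMP2 libraries and 10 over the PBS libraries, which was too few to be tested. The light chain Klc1 (ENSMUSG00000021288, chr12:111758849-111807844) had 187, 137 and 115 CPM in BMP2 libraries of batches 1, 2 and 3, against 139, 125 and 115 CPM in PBS libraries, with differences of 0.43, 0.14 and 0.00099 within batches. Klc2 had 30.3, 28.4 and 43.96 CPM with BMP2 and 29.5, 34.7 and 34.1 CPM with PBS, and Klc4 had 34.6, 35.4 and 37.4 CPM with BMP2 and 52.2, 33.6 and 31.4 CPM with PBS. None of these light chain genes was called, and their log2 fold changes were 0.22, 0.064 and -0.12.

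Kinesin-2 motors drive transport into cilia, with Kif3a paired to Kif3b or Kif3c. Kif3a (ENSMUSG00000018395, chr11:53567379-53601967) had 92.1, 98.4 and 86.7 CPM in BMP2 libraries of batches 1, 2 and 3, against 103, 103 and 96.99 CPM in PBS libraries. Its differences of -0.16, -0.073 and -0.16 were all below 0, and the groups overlapped. Its partner Kif3b had 38.4, 46.4 and 54.3 CPM in BMP2 libraries of batches 1, 2 and 3, against 25.1, 41.2 and 46.5 CPM in PBS libraries, and was higher with BMP2 in all 3 batches by 0.62, 0.17 and 0.22, the widest of them in batch 1. Kif3c had 81.5, 98.3 and 75.2 CPM with BMP2 and 101, 100.4 and 98.1 CPM with PBS, and 40.2% of its 31-mers occur in other genes, 34.97% in 1110002L01Rik. The pooled log2 fold changes were -0.13 (SE 0.16), 0.30 (SE 0.27) and -0.23 (SE 0.18), and none was called. Kif17, a further kinesin-2 motor, had 9 estimated counts over the BMP2 libraries and 8 over the PBS libraries.

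Kinesin-3 motors carry endosomes, vesicles and mitochondria. Kif13a, which in human melanocytic cells brings pigment enzymes from recycling endosomes to melanosomes, had 15.3, 23.2 and 22.6 CPM in BMP2 libraries of batches 1, 2 and 3, against 17.4, 25.1 and 25.9 CPM in PBS libraries. Its values followed the batches, with both libraries of batch 1 below the other 4, and the log2 fold change was -0.16 (95% interval -0.75 to 0.42). Kif1c had 73.4, 102 and 136 CPM in BMP2 libraries of batches 1, 2 and 3, against 74.1, 99.3 and 116 CPM in PBS libraries, and Kif1b, a motor of mitochondria and vesicles, had 61.4, 68.5 and 90.7 CPM with BMP2 and 58.4, 67.6 and 92.4 CPM with PBS. Both were lowest in batch 1 and highest in batch 3 in either group. Kif16b, an early endosome motor, had 38.4, 43.1 and 44.4 CPM with BMP2 and 35.3, 42.4 and 41.99 CPM with PBS, with differences of 0.12, 0.023 and 0.080. The log2 fold changes of Kif1c, Kif1b and Kif16b were 0.11, 0.015 and 0.072. The neuronal motor Kif1a had 1 estimated count over the BMP2 libraries and 2 over the PBS libraries.

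Among the other kinesins that were lower with BMP2 in all 3 batches, Kif24, Kif21b and Kif2a had the smallest unadjusted p, and their groups overlapped. Kif24 (ENSMUSG00000028438, chr4:41390745-41464887), which trims centriolar microtubules and restrains cilia, had 99.1, 76.3 and 101 CPM in BMP2 libraries of batches 1, 2 and 3, against 180.2, 101 and 130.4 CPM in PBS libraries. Its differences were -0.86, -0.41 and -0.36, the highest BMP2 and lowest PBS values were nearly equal, and the log2 fold change was -0.57 (SE 0.25) at an unadjusted p of 0.0499 and an edgeR adjusted p of 0.883, or 0.171 with the block. Kif21b (ENSMUSG00000041642, chr1:136131389-136177998), which tunes microtubule growth and is best known in neurons and lymphocytes, had 398, 272 and 129 CPM in BMP2 libraries of batches 1, 2 and 3, against 578, 353 and 322 CPM in PBS libraries. Its differences were -0.54, -0.38 and -1.32, the widest of them in batch 3. The log2 fold change of Kif21b was -0.65 (SE 0.41), with an adjusted p of 0.883, or 0.174 with the block. Kif2a, which removes tubulin at spindle poles and in neurites, had 34.4, 24.3 and 26.7 CPM in BMP2 libraries of batches 1, 2 and 3, against 52.8, 34.3 and 29.9 CPM in PBS libraries, with differences of -0.62, -0.49 and -0.16 and an adjusted p of 0.883, or 0.250 with the block.

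The log2 fold changes of Kif24, Kif21b and Kif2a, which were -0.57, -0.65 and -0.45 over all libraries, were -0.33, -0.35 and -0.18 without the PBS library of batch 1. With all of batch 1 left out of the blocked fit, they were -0.39, -0.86 and -0.34. Kif21b was at -0.32 without the BMP2 library of batch 3, its value nearest to 0 when 1 library was left out. These genes were picked for being lower in all 3 batches, so their shared sign is a description. In all, 9 of 25 other kinesins were lower in all 3 batches (36%, against 21.1% of all genes) and 5 were higher in all 3 (20%, against 22.8%). Among the mitotic kinesins 1 of 12 was lower in all 3 (Kif22) and 1 higher (Kif11).

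Kif9, a motor of sperm flagella, was the only tested kinesin whose groups did not overlap, a pattern that 6.40% of all genes showed in that direction and 5.70% in the other. It had 3.71, 4.101 and 5.32 CPM in BMP2 libraries of batches 1, 2 and 3, against 1.92, 2.56 and 3.67 CPM in PBS libraries. Its lowest BMP2 value was just above its highest PBS value, with differences of 0.93, 0.66 and 0.52, and the log2 fold change was 0.68 (SE 0.36) with an edgeR adjusted p of 0.883, or 0.256 with the block. Kif6, another motor of motile cilia, had 4.15, 3.01 and 1.67 CPM with BMP2 and 5.88, 3.702 and 3.34 CPM with PBS and was lower in all 3 batches. Of the remaining tested kinesins, Kif7, Kif13b, Kif19a, Kif21a, Kif26a, Kif26b and Kifc3 had log2 fold changes between -0.60 (Kif26a) and 0.25 (Kifc3), with adjusted p of 0.883 to 0.982. Kif12 and Kif2b had 0 counts in all 6 libraries, and Kif27 and Kif28 had 13 and 10 estimated counts over the BMP2 libraries and 13 and 11 over the PBS libraries. A count of 0 in a library allows up to 0.0749 to 0.103 CPM at these depths.

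**Figure D5:**
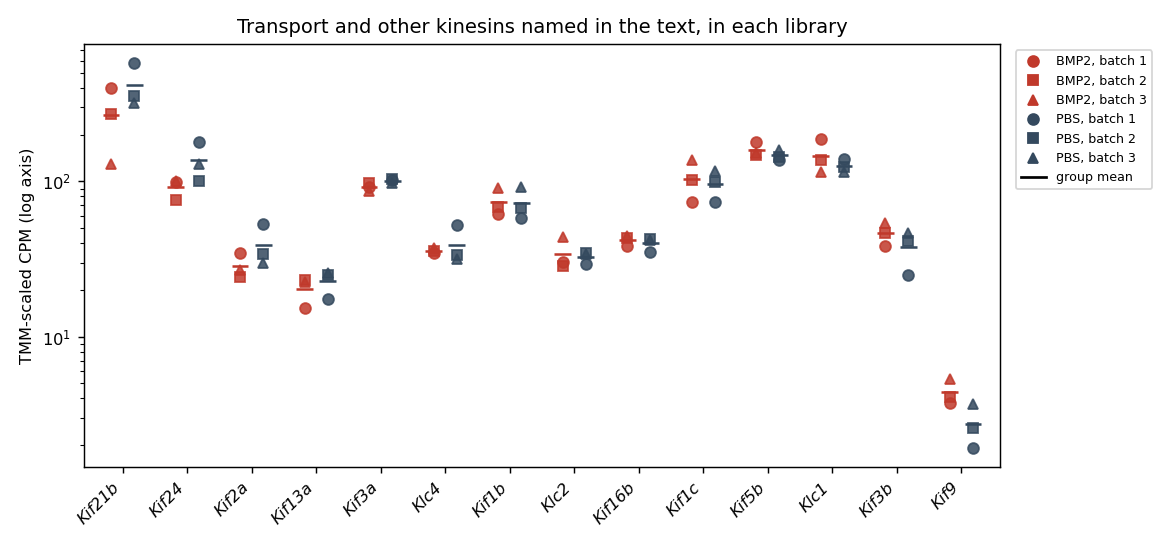
TMM-scaled CPM on a log axis (y axis) of 14 kinesins outside the mitotic list (x axis, ordered by fold change) in the 3 BMP2 and 3 PBS libraries. Group means are bars and the batch is the point shape. The groups overlap for all of them but Kif9, at 3.71 to 5.32 CPM with BMP2 and 1.92 to 3.67 CPM with PBS.

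Of the listed adaptors and regulators that link these motors to cargo, 19 were tested and 0 were called in either fit. Their median log2 fold change was -0.034, with 3 higher and 6 lower in all 3 batches, against 22.8% and 21.1% of all genes. Mapk8ip1, a scaffold that binds kinesin light chains, had 99.1, 111 and 128 CPM with BMP2 and 160.4, 138 and 153 CPM with PBS, and its groups did not overlap. Named after their values were seen, Dtnbp1 and Kifap3 also lay below PBS without overlap and Kif1bp above it, so that 3 of 19 lay below and 1 above, against 5.70% and 6.40% of all genes. Syne2, which anchors motors to the nuclear envelope, had 93.3, 61.1 and 65.01 CPM with BMP2 and 327, 86.5 and 70.3 CPM with PBS, and was highest in the PBS library of batch 1. The edgeR adjusted p was 0.883 for both genes without the block, and with it 0.232 for Mapk8ip1 and 0.274 for Syne2.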

How the data were processed

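For 3 BMP2 and 3 PBS libraries, estimated counts per gene are given as deposited by the authors. The submitters' processing notes list kallisto 0.44.0 and GRCm38.p6. Which transcripts were used, whether strand was set and how transcripts were summed is not given in the sources. Per the labels' protocols a TruSeq kit was used. Columns whose names mark controls hold the samples with untreated in their title, for which the protocol states PBS. Of 34981 genes, 34600 matched a symbol of GENCODE M21, from which the protein-coding kinesins were taken. Because kallisto divides shared reads by likelihood, the share of each kinesin's 31-mers found in other genes' transcripts was counted on both strands (Python 3.11.15).

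Rounded counts entered edgeR 4.0.16 (R 4.3.3), by its quasi-likelihood test, after its default filter on low counts and TMM scaling, with the treatment alone in the model and Benjamini-Hochberg adjustment over 12929 genes at 0.05. SE and 95% intervals were worked back from the F statistic. Log2 differences within a batch used a prior count of 2. Estimated counts carry no molecular identifiers, so the limits given for 0 counts cover counting error only, at 3 counts.

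The series design states that each replicate number is a run of the experiment, called a batch here. Deviations from group means correlated at 0.51, 0.25 and 0.52 across genes within batches 1, 2 and 3, so a model with batch as a block (2 residual degrees of freedom, against 4) was fitted too. Other alternatives were DESeq2 size factors, the Wald test of DESeq2 1.42.0, no filter, a mean of at least 100 counts, leaving out each library or batch, and summing Kifc1 with Kifc5b. The scripts were tested on simulated data. The members, lists, partners and promoter motifs were chosen with earlier results of these data known. All mitotic kinesins were named, and of the others 9 transport genes and the 3 with the smallest unadjusted p among those higher, and those lower, in all 3 batches. Other kinesins were named after their values were seen, to account for every member. Of the 3 adaptor genes that the rule names, 1 is not reported here.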

Additional observations from a re-analysis of the deposited data

How the results depend on the processing

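Counts of called kinesins were 0 in either direction under all alternatives run. Under DESeq2 size factors, the DESeq2 Wald test, no filter and the stricter filter, the 26 kinesins named by rule kept their direction, as did Kifc1 summed with Kifc5b. With batch as a replicate block they also kept it, and the medians were -0.23 for mitotic and -0.025 for other kinesins. The sign of the mitotic median depended on the PBS library of batch 1. Leaving out single libraries gave mitotic medians of -0.43 to 0.27, medians of other kinesins of -0.15 to -0.021, and mitotic minus other of -0.36 to 0.35 (main value -0.25), with the highest mitotic and difference values without PBS replicate 1. The other kinesins were at -0.100 in the blocked fit without batch 2. In the blocked fits without 1 batch these ranges were -0.43 to 0.085, -0.14 to -0.011 and -0.29 to 0.10. Such fits keep 1 residual degree of freedom, and leaving out 1 library without the block breaks a batch pair.

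Signs of single genes turned when 1 library was left out, among them Kif14, Kif20a and Kif18a, whose main values were -0.44, -0.40 and -0.36 and which were at 0.22, 0.069 and 0.33 without PBS replicate 1. The ranges were -0.33 to 0.0056 for Kif13a, -0.69 to 0.22 for Kif14, -0.30 to 0.45 for Kif15, -0.014 to 0.13 for Kif16b, -0.61 to 0.33 for Kif18a, -0.17 to 0.23 for Kif1b, -0.14 to 0.31 for Kif1c, -0.61 to 0.069 for Kif20a, -0.26 to 0.55 for Kif20b, -0.34 to 0.32 for Kif4, -0.16 to 0.17 for Klc2 and -0.25 to 0.13 for Klc4. In the blocked fits without 1 batch, they were -0.47 to 0.10 for Kif14, -0.40 to 0.12 for Kif18a, -0.53 to 0.056 for Kif18b, -0.011 to 0.044 for Kif1b, -0.60 to 0.060 for Kif20a, -0.0015 to 0.28 for Kif23, -0.56 to 0.056 for Kif2c, -0.27 to 0.16 for Kif4, -0.016 to 0.21 for Kif5b, -0.60 to 0.032 for Kifc1, -0.12 to 0.21 for Klc2 and -0.26 to 0.16 for Klc4. The lowest adjusted p of a named kinesin in fits without 1 library or batch was 0.0755 (Kif21b, blocked). Depth limits the statements on Kif5a, Kif17, Kif1a, Kif27 and Kif28, which had too few counts to be tested.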
